A study of Mus musculus with 2 samples.

Results

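Myoblast fusion and adhesion genes were followed in single cells from mouse limb muscle at 2 embryonic ages. The set holds 8 genes, chosen by symbol from the 32285 genes listed in both count matrices: Mymk, Mymx, Cdh15, Cdh2, Jam2, Jam3, Cdon and Megf10, and each was found once in each matrix. Both libraries came from wild-type C57Bl/6 embryos, one at E12.5 and the other at E15.5, and in each the muscles of forelimbs and hindlimbs were dissociated with trypsin and loaded on a droplet instrument that reads transcript 3′ ends. The labels do not give the number or the sex of the embryos. With 1 library per age there was no replicate, so no test between ages was made. The intervals given below are 95% intervals that cover counting error only.

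Skeletal muscle fibres form when mononucleated myoblasts leave the cell cycle, switch on the transcription factor myogenin (Myog), adhere to each other and merge their membranes. Mymk encodes myomaker, a multipass membrane protein that both partner cells need for fusion, and Mymx encodes myomerger (also called myomixer or minion), a micropeptide that acts after myomaker to open the fusion pore. M-cadherin (Cdh15) and N-cadherin (Cdh2) are calcium-dependent adhesion molecules, and JAM-B (Jam2) and JAM-C (Jam3) are immunoglobulin-type adhesion molecules that bind each other across cells. Cdon is a cell-surface co-receptor that works with cadherins and Hedgehog ligands and promotes myogenic differentiation, and Megf10 is an EGF-repeat receptor of muscle progenitors and satellite cells.

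The coding sequence of Mymx is shown because the results below turn on this gene and because its product is a micropeptide. The gene (ENSMUSG00000079471) spans chr17:45600971-45602102 on the minus strand of GRCm38, and its transcript Mymx-203 has 804 bases in 2 exons, of which 255 bases, chr17:45601417-45601671, are coding. It is written 5′ to 3′ along the gene, with the start and stop codons in capitals.
Mymx coding sequence: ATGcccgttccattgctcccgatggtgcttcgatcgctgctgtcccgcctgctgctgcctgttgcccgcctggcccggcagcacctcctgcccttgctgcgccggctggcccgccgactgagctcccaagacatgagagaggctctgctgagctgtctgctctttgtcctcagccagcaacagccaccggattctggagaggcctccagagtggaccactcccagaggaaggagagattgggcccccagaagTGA

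The stretch upstream of Myog is shown because Myog is the gene against which the others were read. It covers the 235 bases before the annotated gene (ENSMUSG00000026459, chr1:134289989-134292548, plus strand), and the E-box, the CANNTG element bound by myogenic regulators, is in capitals. The sequence comes from RefSeq on GRCm38.p6.
Myog, chr1:134289754-134289988: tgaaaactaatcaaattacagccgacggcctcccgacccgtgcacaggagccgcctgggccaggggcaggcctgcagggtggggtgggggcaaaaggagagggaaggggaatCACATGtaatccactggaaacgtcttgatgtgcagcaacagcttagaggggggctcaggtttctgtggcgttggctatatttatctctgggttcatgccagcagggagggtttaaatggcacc
Of the 8 genes, 2 had an entry in the RefSeq promoter table, Cdh15 and Cdon, each covering 250 bases before to 50 bases after the RefSeq start. The Cdh15 window held 4 E-boxes, in capitals below with their distance in bases from the RefSeq start at chr8:122848374. That window begins inside an annotated exon of the GENCODE gene (ENSMUSG00000031962, chr8:122847966-122867397, plus strand).
Cdh15 site at -236, chr8:122848130-122848151: actgatcaCATATGctgtcact
Cdh15 site at -135, chr8:122848231-122848252: cccacctaCATGTGctgtcact
Cdh15 site at -32, chr8:122848334-122848355: ccaccacaCACGTGcagtccct
Cdh15 site at -2, chr8:122848364-122848385: tccccaagCACTTGcgctgtca
The E-box search found none in the Cdon window, which lies at an internal start of that gene. The pattern reads the same on both strands, and 72.3% of all 32851 windows of this length held it at least once, 39.6% held at least as many as the 2 of the full Myog window and 6.49% held at least 4. The form CAGCTG, present in 16.3% of all windows, was in none of the Myog, Cdh15 and Cdon windows. These matches describe letters only.

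The libraries held 12941 barcodes at E12.5 and 5780 at E15.5, with 34907675 and 46966083 UMIs (unique molecular identifiers, 1 per captured transcript) and medians of 2384 and 7332.5 UMIs per barcode. After filters and removal of called doublets, 11001 and 3916 cells were kept, and 17 barcode sequences occurred in both libraries, 0.131% and 0.294% of each. Cells were clustered within each library without the 8 genes, Myog and their pathway genes among the variable genes, and clusters were named from markers that include none of the 8 and not Myog. The tissue is labelled skeletal muscle, but most cells carried other markers: of the kept cells, 604 (5.49%) at the earlier age and 399 (10.2%) at the later one fell in the muscle-lineage-like class, and 76.5% and 43.0% were connective-tissue-like. Within the muscle class, clusters were led by Pax7 (progenitors), by Myog (differentiating myoblasts) or by Mylpf and other contractile genes. Led by means that the gene was among the leading genes of the cluster, not always the first. Unlike the class names, this grouping used Myog itself, separately in each library. The Pax7-led clusters held 394 and 310 cells, the Myog-led clusters 85 and 69, and the Mylpf-led cluster 125 and 20. All 16 muscle markers were present in the class at both ages, summing to 13779 and 7565 UMIs per 1000000 (CPM). Markers of other classes were also present in it: the 10 connective tissue markers summed to 778 and 883 CPM, against 5022 and 16014 in their own class, and all 10 had UMIs. The 8 endothelial markers summed to 10.9 and 32.3 CPM, with Emcn, Tie1 and Cldn5 at 0 at E12.5. The 8 chondrocyte markers summed to 259 and 24.9 CPM, the 7 Schwann cell markers to 120 and 37.1 CPM, and the 7 mural markers to 1314 and 514 CPM. Of the mural markers, Kcnj8, Myh11 and Higd1b were at 0 at E12.5, and Myh11 and Higd1b at E15.5. The mural class of E15.5 had 5236 CPM of them, and no mural class was named at E12.5. The part of such RNA in the levels below was not tested.

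Mymk and Mymx were found mostly in the muscle class. Muscle cells held 87.4% of the kept Mymk UMIs at E12.5, and 94.9% 3 days later, although they held 8.81% and 15.1% of the UMIs of all genes. For Mymx the shares were 95.3% and 97.3%. Mymk (ENSMUSG00000009214, chr2:27061636-27072179, minus strand) stood at 133.5 CPM (interval 119.5 to 149, 332 UMIs) in muscle and 1.86 CPM in all other cells at E12.5, and at 93.5 CPM (86.0 to 101, 574 UMIs) and 0.895 CPM at E15.5. Mymx stood at 114 CPM (101 to 128, 283 UMIs) in muscle and 0.544 CPM elsewhere at E12.5, and at 208 CPM (197 to 220, 1276 UMIs) and 1.04 CPM at E15.5. In the order of the classes, muscle came first for both genes at both ages and its interval met no other, whereas the intervals of all classes below it overlapped those of their neighbours. Endothelial cells had no Mymk UMI at either age, which allows up to 4.91 and 1.44 CPM.

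The 2 fusion genes had age ratios of opposite sign. In the whole muscle class Mymk was lower at E15.5, by a log2 ratio of -0.51 (-0.71 to -0.31), and Mymx was higher, by 0.87 (0.68 to 1.06). When muscle cells were instead gated one by one on 3 markers, the ratios were -0.062 (-0.26 to 0.14) and 1.30 (1.11 to 1.496). Of the UMIs of both genes together, Mymx made up 46.0% (42.0% to 50.05%) at the earlier age and 69.0% (66.8% to 71.1%) at the later one. The same order held in the Myog-led clusters, at 60.7% (52.0% to 69.0%) and 73.4% (70.8% to 75.8%), and in the Mylpf-led cluster, at 41.6% (37.1% to 46.2%) and 52.1% (46.8% to 57.3%). The Pax7-led cluster of E12.5 had only 9 UMIs of the pair, so its share was not read.

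The lower Mymk level of the whole class at E15.5 was not seen within the clusters that hold progenitors and differentiating myoblasts. In the Pax7-led clusters Mymk was at 2.56 CPM (4 UMIs) and 15.49 CPM (75 UMIs) at the earlier and the later age, and the log2 ratio was 2.60 (1.18 to 4.51). The earlier of these levels, with an interval of 0.698 to 6.56 CPM, was not distinguishable from the 2.10 CPM of connective-tissue-like cells. In the Myog-led clusters it was at 150 and 374 CPM, a log2 ratio of 1.32 (0.90 to 1.77). In the Mylpf-led cluster it was at 481 and 405 CPM, and the interval of the ratio, -0.53 to 0.032, included 0. Of all muscle UMIs, the Mylpf-led cluster gave 23.0% and then 6.99%, the Pax7-led clusters 62.8% and 78.9%, and the Myog-led clusters 14.2% and 14.1%. With the E15.5 levels of the 3 groups weighted by their E12.5 shares of UMIs, Mymk came to 156 CPM, a log2 ratio of 0.23, against 93.5 CPM unweighted. A single cell bears on that value: 1 of the 20 Mylpf-led cells at E15.5 had 94309 UMIs, 22.0% of the cluster's UMIs, and 83 of its 174 Mymk UMIs. Without that cell the cluster stood at 272 CPM of Mymk, the weighted log2 ratio was -0.089 and the unweighted one -0.72. The direction of the weighted Mymk ratio thus depends on 1 cell, whereas both ratios in the Pax7-led and Myog-led clusters do not include it.

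Mymx was higher at E15.5 in the Pax7-led and the Myog-led clusters. It was at 3.20 CPM (5 UMIs) and 39.4 CPM (191 UMIs) in the Pax7-led clusters, a log2 ratio of 3.62 (2.37 to 5.26). It was at 232 and 1032 CPM in the Myog-led clusters, a log2 ratio of 2.16 (1.83 to 2.501). In the Mylpf-led cluster it was at 343 and 440 CPM, a log2 ratio of 0.36 (0.065 to 0.66), but 88 of the 189 UMIs at E15.5 were in the single deep cell named above, and without it the level was 302 CPM, below that of E12.5. At E15.5 the fusion genes of the Pax7-led cells lay mostly in 1 of their 2 clusters: the first had 2.35 CPM of Mymk and 10.3 CPM of Mymx, and the second, which also listed Myod1 among its leading genes, had 25.8 and 62.3 CPM. Within the Pax7-led clusters of E15.5, 81 cells had a Myog UMI and held 74 of the 75 Mymk UMIs and 187 of the 191 Mymx UMIs. The 229 cells without one held 1 and 4 UMIs, or 0.292 and 1.17 CPM. At E12.5, 56 of 394 such cells had a Myog UMI, and they held 2 Mymk and 4 Mymx UMIs, against 2 and 1 in the 338 cells without one. These counts use all UMIs of each cell, and the cells of E15.5 were deeper. Myog itself was at 50.6 and 170 CPM in the Pax7-led clusters and at 929 and 2302 CPM in the Myog-led clusters. In the Mylpf-led cluster it was at 1230 and 1458 CPM, so at E12.5 the Myog-led clusters were not the highest in Myog. The log2 age ratio of Myog in the Myog-led clusters was 1.31 (1.14 to 1.48), next to 1.32 for Mymk and 2.16 for Mymx. These clusters were grouped on Myog itself and were not matched for it between the ages. The part of this in the Mymk and Mymx ratios was not tested.

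**Figure D1:**
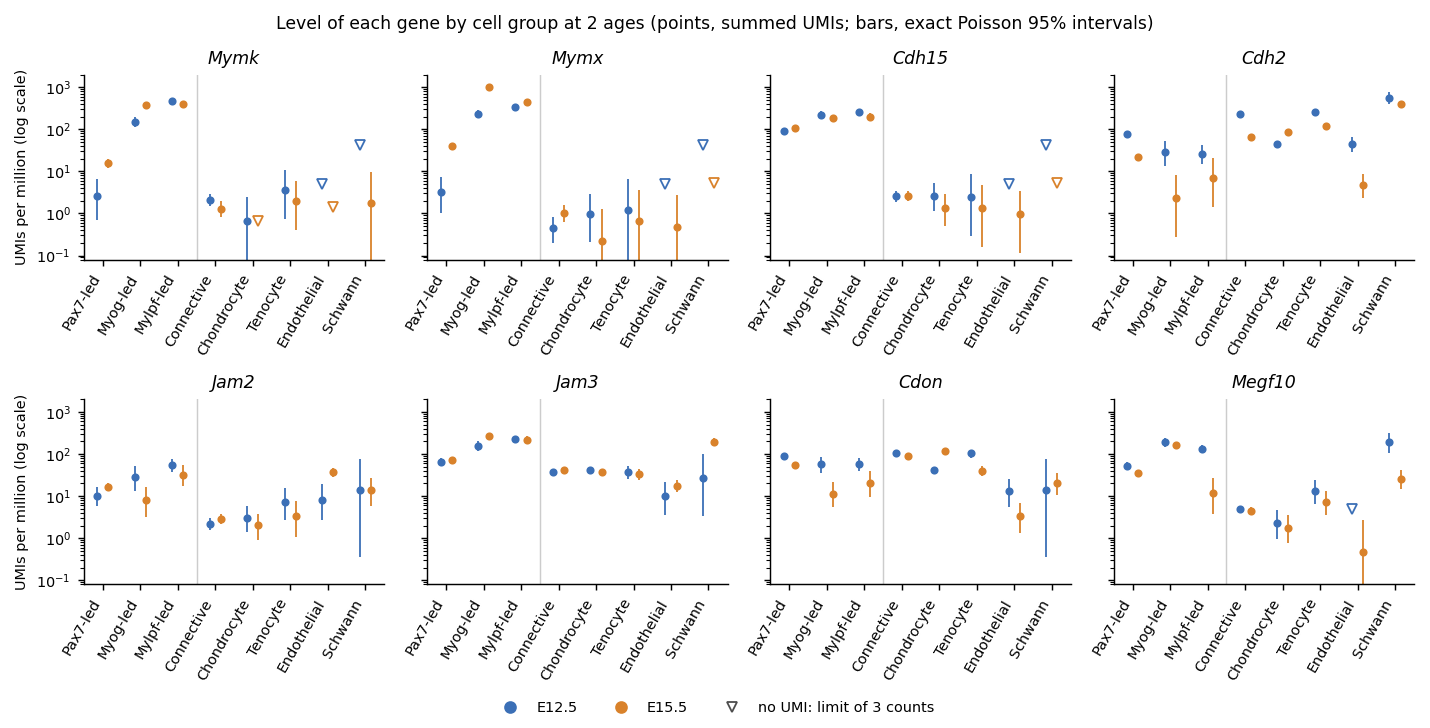
Level of each gene in CPM (log axis) in the 3 groups of muscle clusters and in 5 other classes at E12.5 (blue) and E15.5 (orange), with exact Poisson 95% intervals; open triangles mark groups with no UMI, at the limit of 3 counts. Mymk and Mymx lie far above the other classes in the Myog-led and Mylpf-led clusters but not in the Pax7-led clusters of E12.5 (2.56 and 3.20 CPM), Cdh15 lies above them in all 3 groups, and Cdh2 and Cdon are as high or higher in several classes outside muscle.

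M-cadherin, the cadherin of myoblasts and satellite cells, was also found mostly in muscle, but in all of its clusters. The muscle class held 85.5% and 91.1% of the kept Cdh15 UMIs, at 150 CPM (135 to 166) and 122 CPM (114 to 131), against 2.45 and 2.11 CPM in all other cells. The Pax7-led clusters held 92.9 and 105 CPM, the Myog-led clusters 223 and 186 CPM, and the Mylpf-led cluster 259 and 193 CPM. The level was thus lowest in the Pax7-led cells at both ages, and the fusion genes differed far more between the groups than Cdh15 did. In the whole class its log2 ratio between the ages was -0.29 (-0.47 to -0.11). The median gene of the muscle class was itself lower at E15.5, by a log2 shift of -0.32, and relative to that shift Cdh15 stood at 0.024, so its direction depends on the scaling. Within the Pax7-led and the Myog-led clusters the intervals of its age ratio included 0. In the Mylpf-led cluster the ratio was -0.42 (-0.83 to -0.024), but 39 of the 83 UMIs at E15.5 were in the single deep cell, and without it the level was 131 CPM. Gm20388, a protein-coding gene model on the same strand, overlaps Cdh15 and had no row of its own.

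N-cadherin (ENSMUSG00000024304, chromosome 18, 16588877 to 16809246, minus strand) had the reverse distribution. Only 2.69% and 4.08% of the Cdh2 UMIs were in muscle cells, at 57.5 CPM (48.5 to 67.7) and 17.9 CPM (14.7 to 21.6), against 201 and 74.6 CPM in all other cells. Among the muscle groups it was highest in the Pax7-led clusters, at 75.6 and 21.7 CPM. The Myog-led clusters had 28.2 and 2.30 CPM (10 and 2 UMIs), and the Mylpf-led cluster 26.2 and 6.99 CPM (15 and 3 UMIs). The Pax7-led cells, lowest in Cdh15, were thus highest in Cdh2 at both ages. At E15.5, however, their Cdh2 interval, 17.7 to 26.3 CPM, overlapped that of the Mylpf-led cluster, 1.44 to 20.4 CPM. The age ratio of Cdh2 was -1.68 (-2.05 to -1.31) in the whole class and -1.80 (-2.19 to -1.41) in the Pax7-led clusters. It was negative in several other classes too: connective tissue had 229 and 66.3 CPM, tenocytes 264 and 122 CPM, and endothelial cells 44.2 and 4.81 CPM. Schwann-like cells had the highest level at both ages, 553 and 398 CPM. The muscle level at E12.5 was close to the endothelial one, and in cells thinned to the same depth the share with a Cdh2 UMI was 10.1% in muscle and 8.70% (10 of 115 cells, 4.25% to 15.4%) in endothelial cells. Endothelial cells can make N-cadherin themselves, so they are not a clean blank for this gene, and at E12.5 the muscle share was not distinguishable from theirs at this depth. The overlapping antisense gene Gm15485 had 7 and 2 UMIs.

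JAM-C was found in all muscle groups and also outside muscle. Jam3 (ENSMUSG00000031990, chr9:27097384-27155421, minus strand) was at 116 CPM (103 to 130) and 111 CPM (103 to 120) in muscle and at 37.6 and 38.8 CPM in all other cells, and muscle held 23.0% and 33.7% of its UMIs. Its age ratio of -0.061 (-0.26 to 0.14) included 0, and relative to the median gene it was 0.26. It was at 65.3 and 72.3 CPM in the Pax7-led clusters, 155 and 275 CPM in the Myog-led clusters and 231 and 221 CPM in the Mylpf-led cluster. The Myog-led clusters were the group whose interval excluded 0, at a log2 ratio of 0.83 (0.40 to 1.28). Outside muscle, Schwann-like cells had 27.6 CPM (2 UMIs) at E12.5 and 197 CPM (114 UMIs) at E15.5. The antisense gene Gm48796, which overlaps Jam3, had 197 and 69 UMIs over all barcodes.

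JAM-B was read on few UMIs in muscle and was also present in endothelial cells. Jam2 (ENSMUSG00000053062, chr16:84774123-84825928, plus strand) had 57 UMIs in muscle at E12.5, or 22.9 CPM (17.4 to 29.7), and 101 at E15.5, or 16.5 CPM (13.4 to 19.99). All other cells had 2.56 and 5.08 CPM. Along the muscle groups it was at 10.2, 28.2 and 54.2 CPM at E12.5 from Pax7-led over Myog-led to Mylpf-led cells, and at 16.5, 8.07 and 32.6 CPM at E15.5. The Myog-led clusters thus stood above the Pax7-led ones at E12.5 and below them at E15.5, but on 10 and 7 UMIs, and the intervals of these groups overlapped at each age. Endothelial cells, in which JAM-B is a known junction protein, went from 8.18 CPM (5 UMIs) to 37.0 CPM (77 UMIs). Their log2 ratio was 2.18 (0.89 to 3.84), and they stood above muscle at E15.5. So did melanocyte-like cells, a class named only at that age, at 38.8 CPM (23.4 to 60.6, 19 UMIs).

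Cdon was found in muscle and in connective-tissue-like, tenocyte-like and chondrocyte-like cells, and muscle was not its highest class at either age. Cdon (ENSMUSG00000038119, chr9:35421128-35507652, plus strand) was at 77.6 CPM (67.0 to 89.4) in muscle and 93.9 CPM in all other cells at E12.5, and at 45.6 CPM (40.4 to 51.3) and 80.8 CPM at E15.5, and muscle held 7.40% and 9.09% of its UMIs. Its age ratio in muscle was -0.77 (-1.04 to -0.49). Within muscle it was highest in the Pax7-led clusters, at 89.7 and 53.9 CPM. The Myog-led clusters had 56.5 and 11.5 CPM, a log2 ratio of -2.29 (-3.55 to -1.13), and the Mylpf-led cluster 57.7 and 21.0 CPM. Cdon and Cdh2 were thus both highest in the Pax7-led cells at both ages. However, intervals of the groups overlapped at E12.5 for Cdon, and at E15.5 for Cdh2 in the Pax7-led and Mylpf-led cells. Connective-tissue-like cells had 105 and 88.7 CPM of Cdon, tenocyte-like cells 103 and 40.1 CPM, and chondrocyte-like cells 41.5 and 118 CPM. Endothelial cells had 13.1 and 3.36 CPM, below the muscle interval at both ages.

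Megf10 was found in all muscle groups and was higher in Myog-led than in Pax7-led cells. The gene (ENSMUSG00000024593, chromosome 18, 57133090 to 57297467, plus strand) stood in muscle at 90.9 CPM (79.4 to 104) and 52.1 CPM (46.6 to 58.2) at the 2 ages, against 5.36 and 4.70 CPM in all other cells. The Pax7-led clusters had 53.2 and 36.4 CPM, and the Myog-led clusters 189 and 160 CPM, so the Myog-led cells were highest at both ages. At E12.5, however, their interval, 147 to 240 CPM, overlapped the 105 to 166 CPM of the Mylpf-led cluster. In the Mylpf-led cluster Megf10 was at 133 CPM (76 UMIs) and then 11.6 CPM (5 UMIs), and the log2 ratio was -3.51 (-5.18 to -2.23). That was the lowest age ratio of the 8 genes in this cluster. The whole class had a ratio of -0.80 (-1.05 to -0.55), and the Myog-led clusters one whose interval, -0.67 to 0.20, included 0. Outside muscle, Schwann-like cells had 193 CPM (14 UMIs, from 20 cells) at E12.5 and 25.9 CPM (15 UMIs) at E15.5. Melanocyte-like cells, a class named only at E15.5, had 57.2 CPM (38.0 to 82.6, 28 UMIs), an interval that overlapped that of muscle.

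Read over the 8 genes, 6 were at least 2-fold higher in muscle than in all other cells at E12.5 after 10 CPM was added to both sides: Mymk, Mymx, Cdh15, Jam2, Jam3 and Megf10. Of all genes tested, 4.09% passed the same rule. At E15.5 it was 5 of 8, since Jam2 reached 1.75-fold, and 3.6% of all genes passed. Cdh2 and Cdon were below the level of the other cells at both ages. Between the ages, 0 of 8 were at least 2-fold higher in muscle at E15.5 (4.63% of all genes tested) and 1 of 8, Cdh2, was at least 2-fold lower (18.9%). The median log2 age ratio of the 8 was -0.50 and that of all genes -0.36, and 7 of the 8 ratios were below 0. The share of all genes below 0 was not counted, and the intervals of Jam2 and Jam3 included 0. Relative to the median gene, which was shifted by -0.32, Cdh15 (0.024), Jam3 (0.26) and Mymx (1.19) lay above 0.

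**Figure D2:**
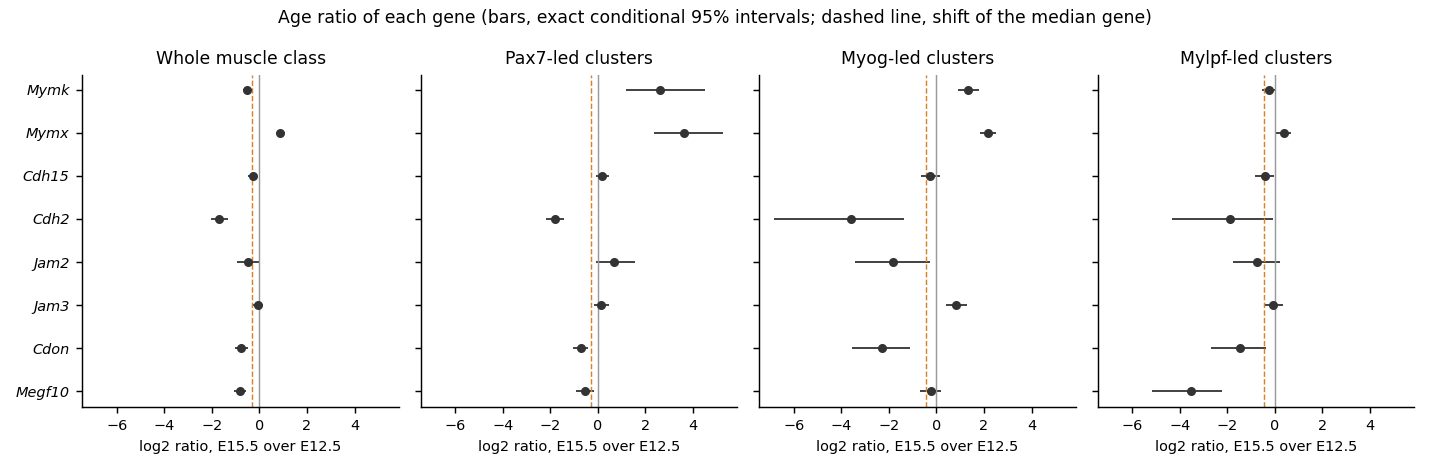
log2 ratio of each gene's level at E15.5 over E12.5 in the whole muscle class and in its 3 groups of clusters; points are ratios of CPM, bars exact conditional 95% intervals, the grey line 0 and the dashed line the shift of the median gene. Mymk lies below 0 in the whole class (-0.51) and above it in the Pax7-led (2.60) and Myog-led (1.32) clusters.

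Co-detection with Myog was read after each cell had been thinned to 2000 UMIs, since the median muscle cell had 3746.5 UMIs in one library and 14256 in the other. This left 552 muscle cells at E12.5, 190 of them with a Myog UMI, and 392 at E15.5, 117 of them with one. Cells with and without Myog had similar depths before thinning, with medians of 3844.5 and 3891 UMIs at E12.5 and 14119 and 14508 at E15.5. Mymk was detected in 40.5% of the Myog-positive cells and 4.42% of the Myog-negative cells at E12.5, and the difference was 36.1 percentage points (28.9 to 43.4). At E15.5 the shares were 37.6% and 0.364%, a difference of 37.2 points (28.8 to 46.3). Mymx was detected in 40.0% and 3.31% at E12.5, a difference of 36.7 points (29.6 to 43.9), and in 63.2% and 2.18% at E15.5, a difference of 61.1 points. Another random draw of the thinning gave 50.4 points for Mymx at E15.5. Endothelial cells at the same depth had neither fusion gene in 115 and 132 cells, which allows shares of up to 2.61% and 2.27%. Read the other way, 82.8% and 97.8% of the Mymk-positive and 86.4% and 92.5% of the Mymx-positive muscle cells had a Myog UMI. With all UMIs of each cell, 97.3% and 98.9% of the Mymk-positive cells had one.

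The other genes differed in their relation to Myog, and several of these differences depended on the depth to which cells were thinned. Megf10 and Jam3 were detected more often with Myog at both ages: Megf10 in 25.8% and 8.84% of cells at E12.5 and 17.9% and 5.82% at E15.5, Jam3 in 31.6% and 15.7% at E12.5 and 30.8% and 12.4% at E15.5. After thinning to 1000 UMIs the Megf10 difference fell from 16.9 to 4.54 points (-0.029 to 10.6) at E12.5 and from 12.1 to 3.23 points (-0.51 to 9.73) at E15.5, and both intervals included 0. For Cdh15 the difference was 21.1 points (13.3 to 28.9) at E12.5 and 4.28 points at E15.5, where its interval included 0. Jam2 had 10.5% and 1.66% at E12.5, a difference of 8.87 points that was 2.61 (-0.35 to 7.33) at 1000 UMIs. At E15.5 Jam2 had 0.855% (1 cell) and 3.64%, and the interval of the difference, -5.79 to 1.39 points, included 0. That difference was positive in another random draw (0.15), at 1000 UMIs (0.38) and with all UMIs (20.4% and 17.2%), so no direction was read at that age.

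Cdh2 was detected less often with Myog at E12.5, in 4.21% and 13.3% of cells. At E15.5 it was detected in 0 of 117 and 4.73%, a difference of -4.73 points (-7.92 to -1.001). The 0 allows up to 2.56% of cells with a Cdh2 UMI at this depth, and with all UMIs 18.0% of the Myog-positive and 23.3% of the Myog-negative cells had one. At E15.5 the interval of the Cdh2 difference included 0 in another random draw (-2.91, -5.63 to 0.58), at 1000 UMIs (-0.94, -3.37 to 3.81), with all UMIs (-5.31, -13.1 to 2.89) and with Myog called at 2 UMIs (-4.26, -7.15 to 0.32). Cdon had 9.47% and 15.47% at E12.5, where the interval of the difference reached 0.031, and 1.71% and 22 of 275 cells at E15.5. Its E15.5 difference was -6.29 points (-10.3 to -1.23), and the interval included 0 in another random draw (-5.65, -10.95 to 1.05), at 1000 UMIs (-3.197, -6.67 to 2.37), with Myog called at 2 UMIs (-4.91, -8.76 to 1.27) and in cells gated one by one (-3.97, -10.4 to 1.52).

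In summed UMIs of the same thinned cells, with 10 CPM added, 6 of 8 genes were at least 2-fold higher in Myog-positive than in Myog-negative cells at E12.5, where 5.58% of all genes were, and 0 of 8 were at least 2-fold lower, where 6.72% were. The 6 were Mymk, Mymx, Cdh15, Jam2, Jam3 and Megf10. At E15.5, 6 of the 8 genes had the 20 UMIs required. Of these, 4 were higher, Mymk, Mymx, Jam3 and Megf10, where 4.63% of all genes were, and Cdon was lower, where 10.2% were. Thinned Mymk was at 305 and 34.5 CPM in cells with and without Myog at E12.5 and at 274 and 3.64 CPM at E15.5. Thinned Mymx was at 358 and 22.1 CPM at E12.5 and at 692 and 12.7 CPM at E15.5. A cell that lost its Myog UMIs by thinning counts here as without Myog, so the levels without Myog were not compared between the ages.

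**Figure D3:**
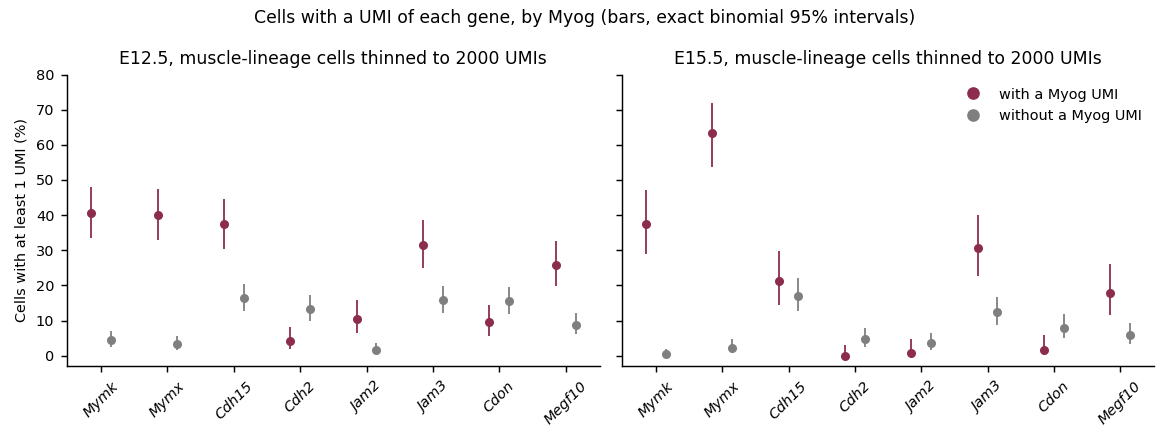
Percentage of muscle-lineage cells with at least 1 UMI of each gene, in cells with (purple) and without (grey) a Myog UMI, after thinning to 2000 UMIs; bars are exact binomial 95% intervals. Mymk and Mymx show the widest gaps at both ages, and the points of Cdh2 and Cdon lie lower in Myog-positive cells.

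The share of cells with a fusion gene also differed with the number of Myog UMIs. At E12.5, Mymk was detected in 4.42% of cells with no Myog UMI, 35.3% with 1, 41.8% with 2 to 4 and 48.4% with 5 or more. The intervals of the 3 bins with Myog overlapped. At E15.5 the Mymk shares were 0.364%, 13.3%, 52.1% and 38.5%. Mymx gave 3.31%, 29.4%, 42.9% and 54.8% at E12.5 and, at E15.5, 2.18%, then 6 of 30 cells, 75.0% and 82.1%. In cells with 2 to 4 Myog UMIs the Mymx intervals of the ages, 32.5% to 53.7% and 60.4% to 86.4%, did not overlap, while with 1 UMI and with 5 or more they did.

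**Figure D4:**
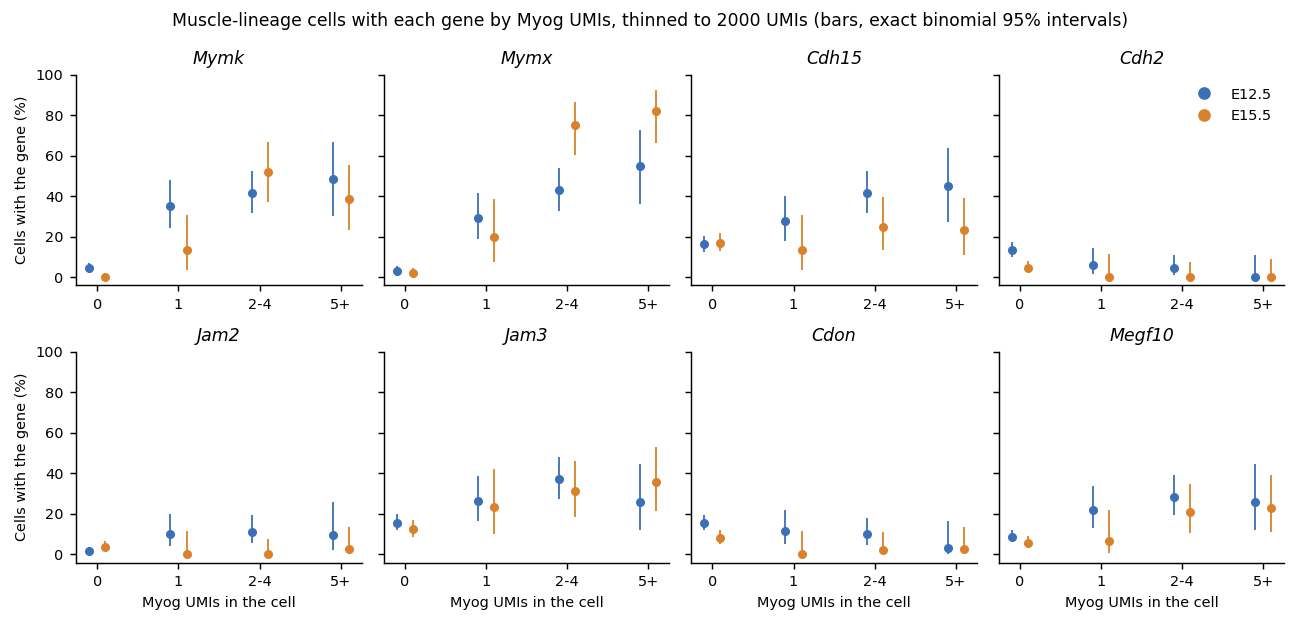
Percentage of muscle-lineage cells with each gene by the number of Myog UMIs in the cell (0, 1, 2 to 4, 5 or more) at E12.5 (blue) and E15.5 (orange), after thinning to 2000 UMIs; bars are exact binomial 95% intervals. Mymx at 2 to 4 Myog UMIs is at 42.9% at E12.5 and 75.0% at E15.5.

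Mymk and Mymx were often in the same cells. At E12.5, 42 thinned muscle cells had both, where independent detection would give 14.8, and at E15.5 37 had both, where it would give 9.18. These expected counts are over all thinned muscle cells, and 413 of 552 and 304 of 392 had neither gene. Of the cells with both, 37 of 42 and 36 of 37 had a Myog UMI. Whether the 2 genes go together beyond their shared relation to Myog was not tested. Cells with Mymk alone numbered 51 and then 8, and cells with Mymx alone 46 and then 43. Mymx was also present in 45.2% and 82.2% of the Mymk-positive cells at the earlier and the later age, whereas of the Mymx-positive cells 47.7% and 46.3% also had Mymk. Cells with Pax7 or Myf5 and no Myog, the profile of progenitors, had Mymk in 2 of 131 and 0 of 96 at the earlier and the later age, and Mymx in 0 of 131 and 0 of 96. The same progenitor profile had Cdh15 in 17.6% and 15.6%, Cdh2 in 15.3% and 7.29%, and Cdon in 13.7% and 6.25%. Outside the muscle class, a Myog UMI was found in 45 of 6402 thinned cells of the earlier age and 41 of 3253 of the later one. Of these, 1 and 0 had Mymk and 0 and 0 had Mymx. With all UMIs, 112 and 184 cells outside muscle had a Myog UMI, and 1 and 4 of them had Mymk, 0 and 7 Mymx. At E15.5 independent detection would give 1.57 and 1.73 such cells. The share differences by Myog were then 1.39 points (0.020 to 4.68) for Mymk and 3.02 points (1.04 to 6.87) for Mymx. A Myog UMI was also found in 1 of 115 and 1 of 132 thinned endothelial cells (intervals 0.022% to 4.75% and 0.019% to 4.15%). At E15.5, 13 of the 41 thinned cells lay in clusters left without a class, where 3.04% of 428 cells had one. Whether the Myog UMIs outside the muscle class reflect expression was not tested.

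Across the 59 clusters of both libraries, the genes whose levels ran most like each member were taken by Pearson's r of log2(CPM + 10) among 9389 genes. These are descriptions across clusters that share 2 libraries, not independent samples. Mymk ran most like Klhl31, Chrng, the fetal acetylcholine receptor subunit, and Klhl41 (r = 0.979, 0.979 and 0.977). Mymx ran most like Chrna1, Gm28653 and Klhl31 (0.971, 0.960 and 0.958), and the r of Mymk with Mymx was 0.975. Cdh15 ran most like Myod1, the myogenic determination factor, Mrln and Fitm1 (0.978, 0.972 and 0.971). Megf10 ran most like Tnik, Musk, the agrin-signalling kinase of the neuromuscular junction, and Chrnb1 (0.831, 0.797 and 0.770). The leading genes were Fam184a for Cdh2 (0.881), Palmd for Jam2 (0.736), Fxr1 for Jam3 (0.837) and Ptprd for Cdon (0.807). With Myog itself r was 0.956 for Mymx, 0.927 for Mymk, 0.923 for Cdh15, 0.716 for Megf10, 0.632 for Jam3, 0.560 for Jam2, -0.067 for Cdon and -0.34 for Cdh2.

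The partners of these genes were read from 8 lists with 77 genes, of which 63 had at least 20 muscle UMIs. Between the ages 7 were at least 2-fold higher in the muscle class at E15.5 and 16 at least 2-fold lower, with a median log2 ratio of -0.42, against 4.63%, 18.9% and -0.36 for all genes. Of the 16 genes for the cadherin complex and muscle adhesion, 2 were higher and 6 lower. The laminin receptor subunit Itga7 was at 2.01 and 23.3 CPM and Vcam1 at 8.44 and 33.1 CPM, and the lowest ratios were those of Itga9, at 45.4 and 2.93 CPM, and Cdh11, at 107 and 11.6 CPM. Of the 11 genes around Cdon, 1 was higher, the ligand Ntn1 on 1 and 20 UMIs, and 2 were lower. These were Boc, the paralogue of Cdon, at 43.8 and 9.94 CPM, and the Hedgehog receptor Ptch1, at 72.4 and 16.8 CPM, while Cdc42 had a ratio of 0.087.

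Of the JAM relatives and partners, 3 of 6 could be read. Pard3, a polarity protein, was lower, at 169 and 64.7 CPM, and Tjp1 had a ratio of -0.96. Of 7 Megf10 relatives and partners 4 could be read. Megf6 was lower, with a ratio of -2.24, and Notch1 (0.36), Gulp1 (-0.30) and Notch3 (-0.45) lay within 2-fold. Of 17 genes for Rac and branched actin, which push the fusing membranes together, 1 was higher and 3 lower. Elmo1 had a ratio of 2.70 on 3 and 48 UMIs and Arhgap26 one of 0.87, and the lowest were Iqsec1 (-1.52) and Kirrel (-1.05). Of the phosphatidylserine genes 2 of 6 could be read, Anxa5 at 0.55 and Adgrb3 at -1.84. Among 6 ferlin and membrane genes 2 were higher: Cav3, the muscle caveolin, at 12.1 and 84.9 CPM, and Ehd2, at 11.7 and 43.0 CPM. Dysf was lower, with a ratio of -1.50, and Capn2 had one of -0.35. Of 4 tetraspanins and their partners 1 was higher, Cd9, at 2.01 and 25.6 CPM, while Cd81 (0.86), Ptgfrn (0.33) and Igsf8 (-0.54) lay within 2-fold.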

How the data were processed

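The deposited files hold whole-number UMI counts per gene and barcode, which the authors made with Cell Ranger 4.0.0 on mm10, per the submitters' processing notes, which also name Seurat 4.3.0. Ambient RNA correction is not given in the sources used here. Gene positions came from GENCODE vM21 (GRCm38), in which 32158 of 32285 gene IDs were matched.

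Cells needed at least 500 genes and under 10% mitochondrial UMIs, and 1270 and 190 simulated-neighbour doublets were removed, at an assumed 0.8% per 1000 barcodes. The 2000 most variable genes, 30 principal components, 15 neighbours and Leiden clustering at resolution 1 gave 29 and 30 clusters. Levels are summed UMIs per 1000000, with exact Poisson intervals. Age ratios have exact conditional intervals, shares Clopper-Pearson intervals and their differences Newcombe intervals. A count of 0 allows up to 3 counts. UMIs at 1 gene's end depend on how that end is captured, so a difference in UMIs between 2 genes was not read as a difference in level. Calls over all genes used a 2-fold rule and no test. Genes entered age ratios at 20 UMIs and muscle contrasts at 10 CPM.

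The named genes were the 8, Myog, for each list the 2 highest and 2 lowest age ratios, and the 3 genes most alike in profile. The value of 1 list gene is not reported here. Members and lists were chosen with earlier results of these data known. The functions were tested on simulated data. Python 3.11.15, numpy 2.4.6, scipy 1.17.1, pandas 2.3.3, scikit-learn 1.9.0, leidenalg 0.10.2, igraph 0.11.9 and matplotlib 3.10.9 were used. Alternatives changed the cell filters, clustering, thinning, the scaling, the cells compared and the level added, and 3 more were chosen after seeing the data: weighting the cluster groups as at E12.5, leaving out the E15.5 cell with the most Mymk UMIs, and both together.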

Additional observations from a re-analysis of the deposited data

Results flagged for a closer look

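Cdh2 and Cdon had age ratios of opposite sign in muscle-lineage-like and chondrocyte-like cells. For Cdh2 the log2 ratio of E15.5 over E12.5 was -1.68 in muscle (57.5 and 17.9 CPM) and 0.90 in chondrocyte-like cells (45.5 and 84.7 CPM, interval 0.61 to 1.19). For Cdon it was -0.77 in muscle (77.6 and 45.6 CPM) and 1.51 in chondrocyte-like cells (41.5 and 118 CPM, interval 1.23 to 1.81). With 1 library per age the difference between the classes was not tested. The chondrocyte-like cells of E12.5 were in clusters of 894 and 194 cells led by Matn1, Hapln1 and Acan, and most of those of E15.5, 422 of 565 cells, were in a cluster led by Mia and Sox9, with 100 cells in a cluster led by Col9a3 and dividing-cell genes and 43 in one led by Matn1. The part of that difference in make-up was not tested.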

How the results depend on the processing

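Over 20 alternatives, 324 values were recomputed: 282 kept their sign and stayed within the counting interval (counts of genes within 1.5 times), 31 kept their sign and left it, and 11 turned in sign. Of the 11, 1 was Mymk, 2 were Cdh15 and 5 were Jam3 age ratios, and 3 were the Jam2 share difference at E15.5. The Mymk age ratio in muscle was -0.062 in cells gated one by one on 3 muscle markers, -0.20 relative to the median gene, -0.11 in cells with Y-linked UMIs, -0.73 in cells with Xist, 0.23 with cluster groups weighted as at E12.5, -0.72 without the cell with the most Mymk UMIs and -0.089 with both. The Mymx ratio was 1.30, 1.19 and 1.55 under the first 3 of these, 1.26 when weighted and 1.08 when weighted without that cell. The Cdh15 ratio was 0.024 relative to the median gene and 0.068 in cells with Y-linked UMIs. The Jam3 ratio was 0.20 in gated cells, 0.26 relative to the median gene, 0.12 in cells with Y-linked UMIs, 0.22 when weighted and 0.14 when weighted without that cell. The Jam2 share difference turned to 0.15 with another thinning seed, 0.38 at 1000 UMIs and 3.12 with no thinning. Thinning to 1000 UMIs gave share differences by Myog of 24.7 and 26.5 points for Mymk and 22.5 and 44.6 for Mymx at E12.5 and E15.5, and no thinning gave 54.1 and 55.9 for Mymk and 46.6 for Mymx at E12.5. At E15.5 Mymx gave 50.4 points with another thinning seed and 74.2 with Myog called at 2 UMIs. The cause of these shifts was not tested. The count of genes higher in muscle was 6 at E12.5 throughout, and 5 or, against connective tissue alone or with 1 CPM added, 6 at E15.5. Muscle cells with Y-linked UMIs alone numbered 140 and 65, and with Xist alone 266 and 288. No paired analysis was possible because each age has 1 library.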

Other observations

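Clusters left without a class at E15.5 held some of these genes. A cluster of 324 cells led by Nefm, Tac1 and Sfrp2 had Cdon at 175 CPM and Cdh2 at 126 CPM. A cluster of 69 cells led by Gm26917, with a median of 2742 UMIs, had Cdon at 307 CPM on 69 UMIs. In 219 shallow cells (median 1296 UMIs) whose cluster had Gm42418 as its leading gene, Myog was found at 164 CPM on 57 UMIs, Mymx at 23.1 CPM on 8 UMIs and Mymk at 5.76 CPM on 2 UMIs.

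The E15.5 cell with 94309 UMIs had 880 CPM of Mymk, 933 CPM of Mymx and 414 CPM of Cdh15, against 272, 302 and 131 CPM in the other cells of its cluster, whose median cell had 10813 UMIs. Its Myog level was 1060 CPM, below the 1570 CPM of the others. This cell was picked after its values were seen.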
